A study of Mus musculus with 6 samples.

Results

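The genes that write and erase N6-methyladenosine (m6A) were examined in mouse oocytes with a conditional knockout of Nat10, the gene of the enzyme that acetylates cytidine in RNA. All 10 listed genes were found by symbol among the 55291 rows of the deposited table, and all 10 passed the filter on low counts that left 18353 genes. They are 8 writer genes (Mettl3, Mettl14, Wtap, Virma, Rbm15, Rbm15b, Zc3h13 and Cbll1) and 2 eraser genes (Alkbh5 and Fto). Poly(A) RNA was sequenced by Smart-seq2 in 3 libraries from WT females and 3 from females carrying Gdf9-cre with a conditional Nat10 knockout (Nat10 cKO), each from 10 fully grown oocytes. The Gdf9 promoter is known to drive Cre in oocytes, and Nat10 in the surrounding follicle cells was not measured here. All donors were mature and had received PMSG, a gonadotropin that stimulates follicle growth, up to 48 h earlier. The labels give the earliest collection as 36 h in one place and 32 h in another, and they give neither the ages nor the alleles of the WT females. Whether the libraries of a group came from separate animals is not stated, so the p-values measure the spread between these libraries, which may be technical.

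m6A is a methyl mark on the adenosines of mRNA. METTL3 transfers the methyl group from S-adenosylmethionine and works as a heterodimer with METTL14, which holds the RNA. WTAP, VIRMA, RBM15, RBM15B, ZC3H13 and CBLL1 form the regulatory part of the complex, while ALKBH5 and FTO, iron-dependent dioxygenases, remove the mark. In oocytes the mark is known for its role in the storage and clearance of maternal mRNA.

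The coding bases at the active sites show how METTL3 differs from METTL14 and what the erasers share. Each run holds 30 coding bases of the principal GENCODE M21 transcript (GRCm38, the assembly of mm10), written 5′ to 3′ on the coding strand. Capitals in Mettl3 mark the codons of the catalytic Asp-Pro-Pro-Trp motif (codons 395 to 398, chr14:52297581-52297592, minus strand). In Mettl14 they mark the matching Glu-Pro-Pro-Leu codons of its inactive site (codons 192 to 195, chr3:123374805-123374816, minus strand). In the erasers they mark the 3 codons that run from the histidine to the aspartate of the iron site: codons 205 to 207 of Alkbh5 (chr11:60539035-60539043, plus strand) and 228 to 230 of Fto (chr8:91409781-91409789, plus strand).
Mettl3: gtgatggctGACCCACCTTGGgatattcac
Mettl14: attctcctgGAGCCCCCTCTGgaagaatac
Alkbh5: atcgtgtccCACGTTGACcccatccacatc
Fto: gtgagctggCATCACGATgagaacctggtg

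The libraries held 33.5 to 74.1 M reads, and the 2 shallowest were WT replicates 1 and 2. Nat10 itself lay at 39.4 to 50.1 CPM in WT and 5.72 to 6.32 CPM in Nat10 cKO libraries. CPM here are counts per 1000000 reads after TMM scaling, which aligns the bulk of genes between libraries. The 14 oocyte markers summed to 23120 to 24220 CPM in WT and 28400 to 33990 CPM in Nat10 cKO libraries, and 11 of them rose while Ooep and Zar1 fell (log2 changes -0.46 and -0.66, limma adjusted p = 0.00138 and 0.000667). Of all tested genes 17.4% rose and 17.6% fell. Granulosa and cumulus markers summed to 420 to 473 and 397 to 442 CPM (16 genes, 4 of them under 1 CPM in every library), mostly Serpine2 (322 and 299 CPM on average). Of the 14 tested, Inha rose from 2.00 ± 0.291 to 5.51 ± 3.42 CPM (SD, n = 3, limma adjusted p = 0.0197). Inhba and Cyp19a1 fell (limma adjusted p = 0.00388 and 0.0488). Theca, stroma and endothelium markers summed to 94.3 to 99.97 and 92.3 to 107 CPM (10 genes, 6 under 1 CPM, Col3a1 without a read). Of the 6 tested, Pecam1 rose (40.7 to 58.4 CPM), while Myh11 (39.4 to 26.0 CPM) and Cyp17a1 fell. Blood and immune markers summed to 51.1 to 55.8 and 41.1 to 44.6 CPM (9 genes, 6 under 1 CPM), mostly C1qb. Of the 4 tested, C1qb fell (44.0 to 32.1 CPM, limma adjusted p = 0.00489) and 3 were not called. The part of these shifts in the member results was not tested, and in pooled oocytes fewer transcripts per cell and a different mix of cells cannot be told apart.

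Under TMM scaling, Mettl14, Wtap, Virma, Rbm15b and Alkbh5 were lower in Nat10 cKO oocytes and Mettl3 was higher. None of them passed in the deposited values. There the sign of Virma turned (log2 change 0.11), but Virma stood at -0.13 relative to the median of all tested genes. The changes under TMM scaling were between 1.19-fold and 1.42-fold. Rbm15, Zc3h13, Cbll1 and Fto did not pass the test under that scaling. Thus 5 of 10 members fell and 1 rose, where 17.6% of all tested genes fell and 17.4% rose (limma, Benjamini-Hochberg adjusted p under 0.05). The WT and Nat10 cKO libraries did not overlap for 7 of 10 members, against 48.3% of all tested genes. The median log2 change was -0.17 over the members and 0.00096 over all tested genes, and the median size of change was 0.34 and 0.24. On whole reads, edgeR and DESeq2 also called 5 members lower and 1 higher (they called 16.6% and 17.9% of all tested genes higher, and 17.2% and 17.6% lower). The members were picked with earlier results known, so these counts describe them and do not set them apart.

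**Figure D1:**
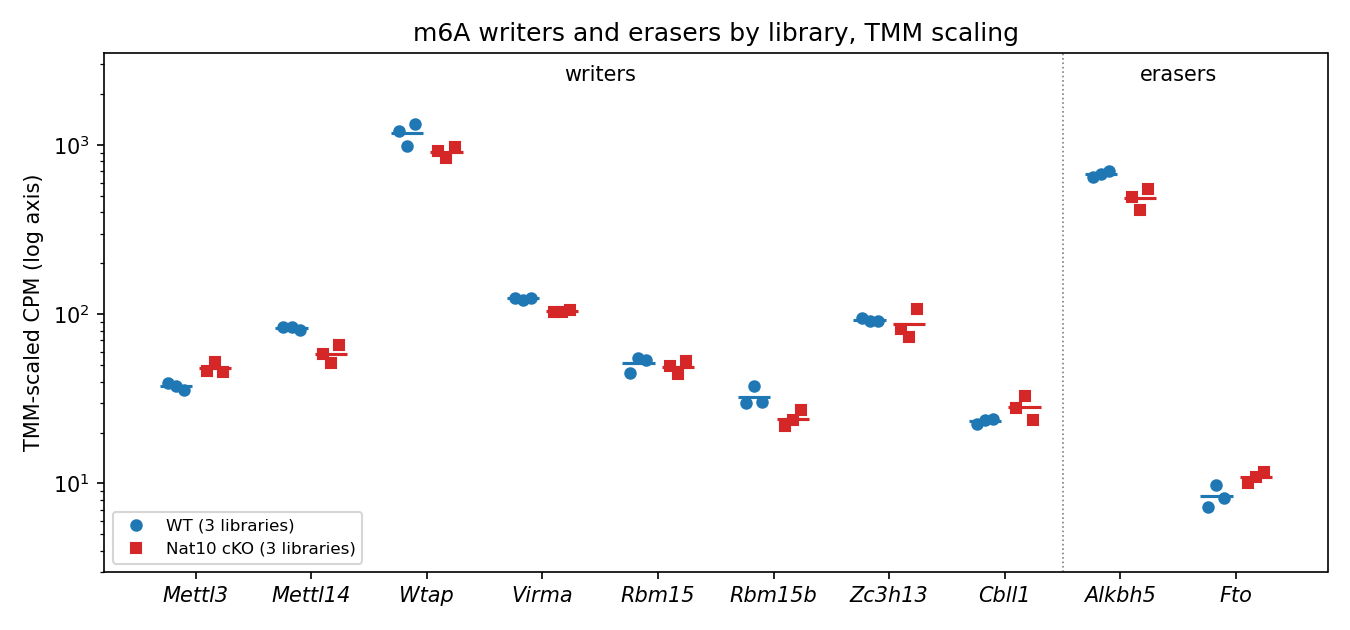
TMM-scaled CPM (log axis) of the 8 writer and 2 eraser genes in each of 3 WT (circles) and 3 Nat10 cKO libraries (squares), with horizontal lines at the group means. Mettl14 lies lower and Mettl3 higher in all Nat10 cKO libraries, while Rbm15, Zc3h13 and Cbll1 overlap between genotypes.

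The 2 genes of the catalytic heterodimer moved in opposite directions. Mettl14 (chromosome 3, 123368297 to 123386108) lay at 84.1, 84.0 and 80.9 CPM in WT replicates 1, 2 and 3, and at 57.8, 51.4 and 65.7 CPM in Nat10 cKO replicates 1, 2 and 3. The groups did not overlap, and the WT libraries were close together. The log2(CPM + 1) level of Mettl14 fell by 0.51 (limma adjusted p = 0.00239, SE 0.103, with 3 libraries in each group). Mettl3 (chromosome 14, 52294841 to 52305128) lay at 39.1, 37.8 and 35.6 CPM in WT and at 46.1, 52.2 and 45.6 CPM in Nat10 cKO replicates. Every Nat10 cKO library was above every WT library, and Mettl3 rose by 0.35 (SE 0.103, limma adjusted p = 0.0187).

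The Mettl14 call held when any 1 library was left out, with log2 changes from -0.59 to -0.42. The rise of Mettl3 was not called without WT replicate 3 (0.31), Nat10 cKO replicate 1 (0.38) or Nat10 cKO replicate 2 (0.29; limma adjusted p up to 0.0867 over these). Exons of Tox4, on the opposite strand, cover 18.4% of the exon bases of Mettl3, and the sources used here do not say whether counting used strand. Tox4 lay at 10.8, 16.1 and 12.5 CPM in WT and 18.0, 20.8 and 15.5 CPM in Nat10 cKO libraries, and its rise was 0.44 on the log2 scale (limma adjusted p = 0.0448). Its part in the Mettl3 value was not tested.

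Among the regulatory subunits, Wtap, Virma and Rbm15b fell. Wtap (chromosome 17, 12966796 to 12994169), the adaptor that brings the heterodimer to nuclear speckles, lay at 1206, 988 and 1334 CPM in WT and 919, 838 and 971 CPM in Nat10 cKO replicates. The lowest WT library, replicate 2, was just above the highest Nat10 cKO library, replicate 3. The log2 level of Wtap fell by 0.36 (SE 0.107, limma adjusted p = 0.0181). Virma (chromosome 4, 11485958 to 11550684), the scaffold of the complex, lay at 125, 122 and 125 CPM in WT and 103, 103 and 107 CPM in Nat10 cKO replicates. Its change was small but the libraries of each group lay close together, and Virma fell by 0.25 (SE 0.0831, limma adjusted p = 0.0335).

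The calls of Wtap and Virma were lost when any of 4 libraries was left out, although the size of the Virma change hardly moved. Without WT replicate 1, WT replicate 3, Nat10 cKO replicate 1 or Nat10 cKO replicate 2, the log2 change of Wtap was -0.34, -0.26, -0.36 and -0.30, and that of Virma -0.24, -0.24, -0.23 and -0.23. In none of these 8 fits was the gene called (limma adjusted p up to 0.114 for Wtap and 0.148 for Virma). With the replicate number as a block, Virma was also not called (limma adjusted p = 0.0712).

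The paralogs Rbm15 and Rbm15b, RNA-binding proteins that direct the complex to its targets, differed in their values. Rbm15b (chromosome 9, 106880918 to 106887428) lay at 29.9, 37.4 and 30.5 CPM in WT and 21.8, 23.7 and 27.0 CPM in Nat10 cKO replicates, with no overlap. The log2 level of Rbm15b fell by 0.42 (SE 0.126, limma adjusted p = 0.0206). Its call was lost without WT replicate 2 (-0.31), WT replicate 3 (-0.46), Nat10 cKO replicate 1 (-0.34) or Nat10 cKO replicate 2 (-0.40). Exons of Dcaf1 (opposite strand) and Manf (same strand) cover 1.37% of its exon bases. Rbm15 (chromosome 3, 107325421 to 107333673) lay at 45.2, 55.3 and 53.3 CPM in WT and 49.2, 44.2 and 52.6 CPM in Nat10 cKO replicates, which overlapped. Its log2 change was -0.07 (SE 0.111, limma adjusted p = 0.645).

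Zc3h13 and Cbll1 did not pass. Zc3h13 (chromosome 14, 75284373 to 75344426), a zinc finger protein that keeps the regulatory complex in the nucleus, lay at 95.4, 91.4 and 90.7 CPM in WT and 81.9, 73.4 and 108 CPM in Nat10 cKO replicates. Nat10 cKO replicate 3 was above all WT libraries and the other Nat10 cKO libraries were below them. The log2 change of Zc3h13 was -0.09 (SE 0.123, limma adjusted p = 0.585), and 0.03 without Nat10 cKO replicate 2.

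Cbll1 (chromosome 12, 31484829 to 31499616), also called Hakai and known as an E3 ubiquitin ligase, lay at 22.5, 23.7 and 24.2 CPM in WT and 28.0, 33.1 and 23.9 CPM in Nat10 cKO replicates. Nat10 cKO replicate 3 lay within the WT range and the other Nat10 cKO libraries above it. Its log2 change was 0.25 (SE 0.128, limma adjusted p = 0.146), and it was called without Nat10 cKO replicate 3 (0.37, limma adjusted p = 0.0342). Exons of the antisense gene model Gm29542 cover 17.6% of the exon bases of Cbll1, and that model held 0 CPM in every library. Whether reads in the shared bases were counted for Cbll1 was not tested.

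Of the erasers, Alkbh5 fell and Fto did not pass. Alkbh5 (chromosome 11, 60536381 to 60558512) lay at 651, 678 and 699 CPM in WT and 497, 415 and 553 CPM in Nat10 cKO replicates. The groups did not overlap, and the spread was wider in Nat10 cKO (676 ± 23.9 against 488 ± 69.3 CPM, SD, n = 3). The log2 level of Alkbh5 fell by 0.48 (SE 0.101, limma adjusted p = 0.00294), and the call held without any 1 library, with log2 changes from -0.57 to -0.36.

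Fto (chromosome 8, 91313525 to 91668439) lay at 7.24, 9.82 and 8.23 CPM in WT and 10.1, 10.9 and 11.7 CPM in Nat10 cKO replicates. All Nat10 cKO libraries were above all WT libraries, the closest being WT replicate 2. The log2 change was 0.34 (SE 0.146, limma adjusted p = 0.0855), and Fto was called without WT replicate 2 (0.46, limma adjusted p = 0.0280). It had the fewest reads of the members, 234 in WT replicate 1 and 845 in Nat10 cKO replicate 3.

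**Figure D2:**
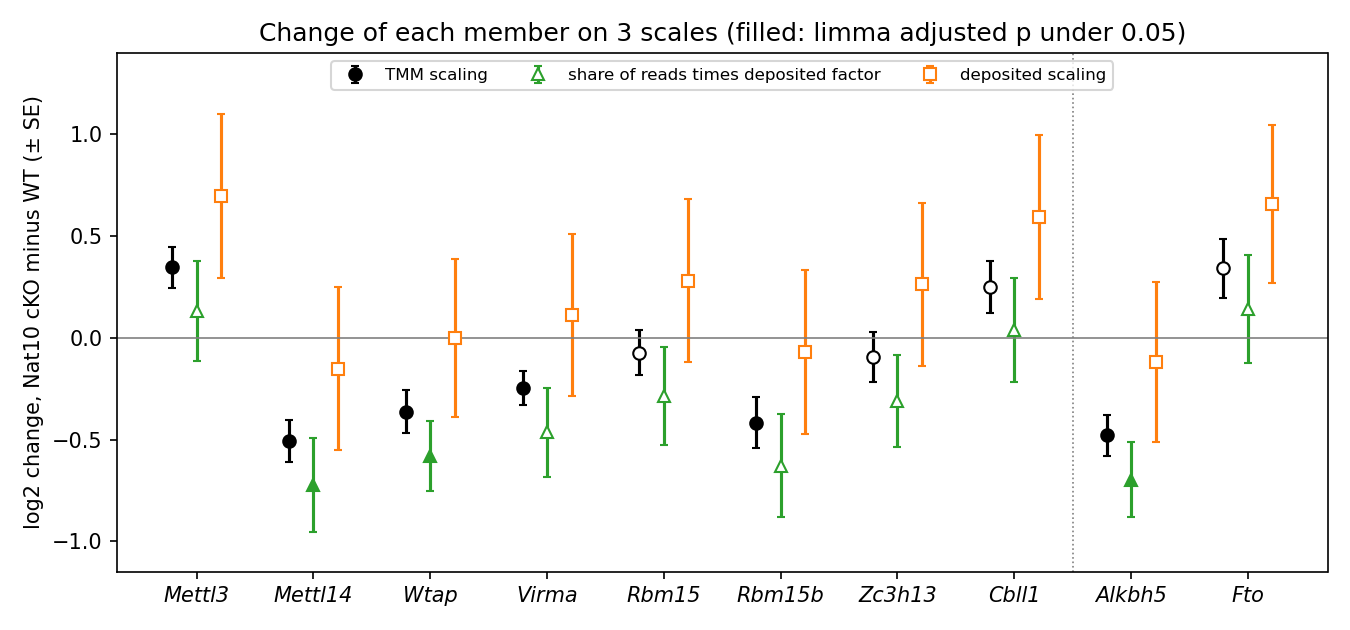
Log2 change (Nat10 cKO minus WT, ± SE of the limma fit, 3 libraries per group) of each member under TMM scaling, with shares of reads multiplied by the deposited factor, and on the deposited scale; filled symbols passed an adjusted p of 0.05. On the deposited scale no member passed, while Mettl14, Wtap and Alkbh5 passed on the other scales.

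The scale decides how many members are called. The deposited values carry 1 factor per library from the authors and are not divided by the reads of a library. On that scale 0 of 10 members passed, where 6.58% of all tested genes rose and 1.39% fell (limma adjusted p under 0.05). At an unadjusted limma p under 0.05, 0 members passed as well. The share of all tested genes at an unadjusted p was not computed on that scale. Mettl14 and Alkbh5 had log2 changes of -0.15 and -0.12, and the sign turned for Virma (0.11), Rbm15 (0.28) and Zc3h13 (0.26). The median of all tested genes was 0.24 on this scale. Relative to that median, Mettl14 stood at -0.39, Alkbh5 at -0.36, Mettl3 at 0.46 and Fto at 0.42. Virma stayed below the median, at -0.13, while Rbm15 and Zc3h13 lay close to it, at 0.04 and 0.02.

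The deposited libraries of a group lay far apart. In deposited values divided by 1 constant, Mettl14 stood at 51.0, 75.7 and 92.2 in WT and 74.6, 41.7 and 83.1 in Nat10 cKO replicates, so the groups overlapped. Mettl3 stood at 23.7, 34.1 and 40.6 in WT and 59.5, 42.3 and 57.7 in Nat10 cKO replicates and did not overlap; 22.7% of all tested genes did not overlap on this scale. WT replicate 1 and Nat10 cKO replicate 2, which have the lowest deposited totals (33.5 and 43.0 M), were the lowest of their groups for Mettl14 and Mettl3 alike.

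**Figure D3:**
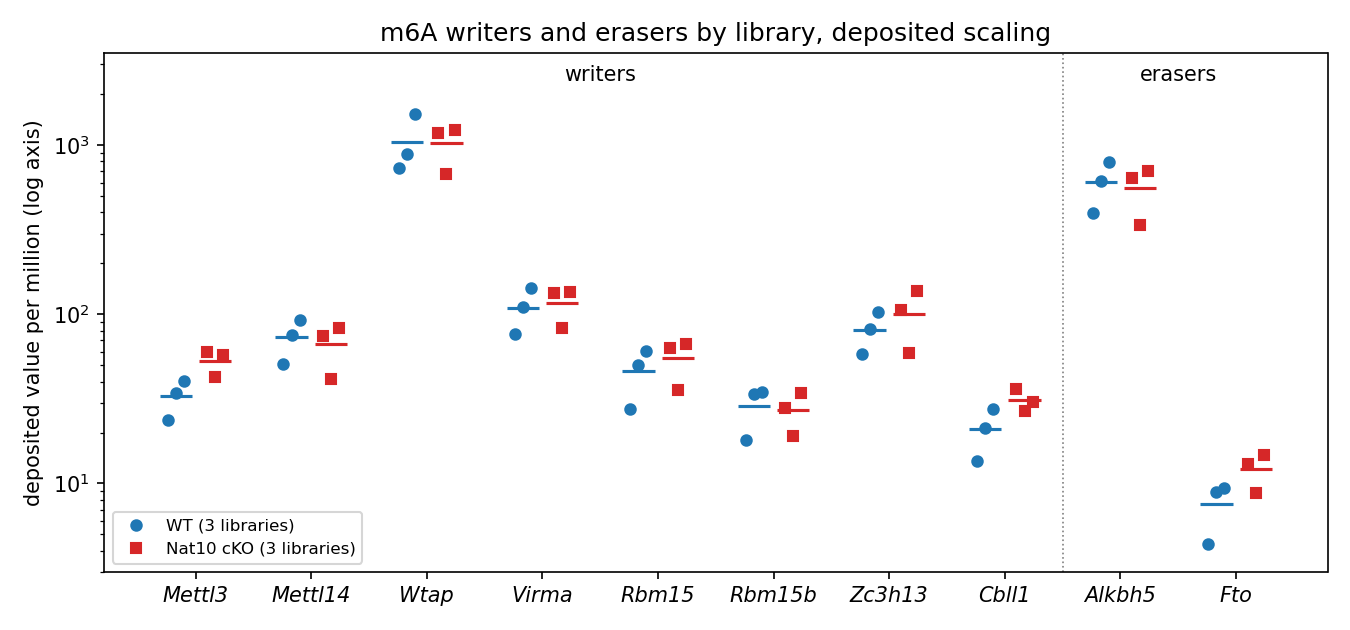
Deposited values (each library divided by the same constant, log axis) of the 10 members in 3 WT (circles) and 3 Nat10 cKO libraries (squares), with lines at the group means. WT replicate 1 and Nat10 cKO replicate 2, the first WT and the middle Nat10 cKO symbol of each gene, are low for most members.

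When the share of reads was multiplied by the deposited factor instead, 3 members fell and 0 rose (limma adjusted p under 0.05). At that threshold 16.5% of all tested genes fell and 5.60% rose. The 3 members were Mettl14 at -0.72, Alkbh5 at -0.70 and Wtap at -0.58 on the log2 scale. At an unadjusted limma p under 0.05, 5 members fell and 0 rose. The share of all tested genes at an unadjusted p was not computed on this scale. Rbm15b and Virma missed the threshold at -0.63 and -0.46 (limma adjusted p = 0.0587 and 0.115). Mettl3 stood at 0.13 and was not called. The median of all tested genes was -0.15 on this scale.

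Ratios of the reads of 2 members within a library do not depend on any scaling between libraries. The fold values given with them come from log2(CPM + 1) and depend on the pseudocount. Reads of Mettl14 to Mettl3 stood at 2.15, 2.22 and 2.27 in WT and 1.26, 0.985 and 1.44 in Nat10 cKO replicates. All WT libraries held more than 2 Mettl14 reads for each Mettl3 read and no Nat10 cKO library did. The ratio was 1.81-fold lower in Nat10 cKO oocytes (difference of -0.85 in log2(CPM + 1); exact permutation test, two-sided, p = 0.1, also 0.1 adjusted over the 4 ratios). With 3 libraries against 3, 0.1 is the smallest p possible, and it was reached for all 4 ratios. Since lower Mettl14 and higher Mettl3 both enter it, the ratio is no independent evidence of either.

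Reads of Alkbh5 to Fto stood at 90.0, 69.0 and 85.0 in WT and 49.2, 38.1 and 47.3 in Nat10 cKO replicates, 1.77-fold lower without overlap (exact permutation p = 0.1; log2 difference -0.85 with a pseudocount of 0.1 and -0.72 with 5). Reads of Wtap to Mettl3 stood at 30.9, 26.1 and 37.5 in WT and 19.9, 16.1 and 21.3 in Nat10 cKO replicates, 1.63-fold lower (exact permutation p = 0.1). The ratio of Rbm15b to Rbm15 changed least, from 0.637 ± 0.0570 to 0.497 ± 0.0486 (SD, n = 3), and was 1.27-fold lower (exact permutation p = 0.1). In each of these ratios every Nat10 cKO library lay below every WT library. Each pair sets a member called lower over one that was not, so none of the ratios is independent evidence of a change. The share of other gene pairs without overlap was not computed. The exact permutation p was 0.2 for Wtap to Mettl3 without Nat10 cKO replicate 2. It was also 0.2 for Rbm15b to Rbm15 without Nat10 cKO replicate 1 or 3.

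**Figure D4:**
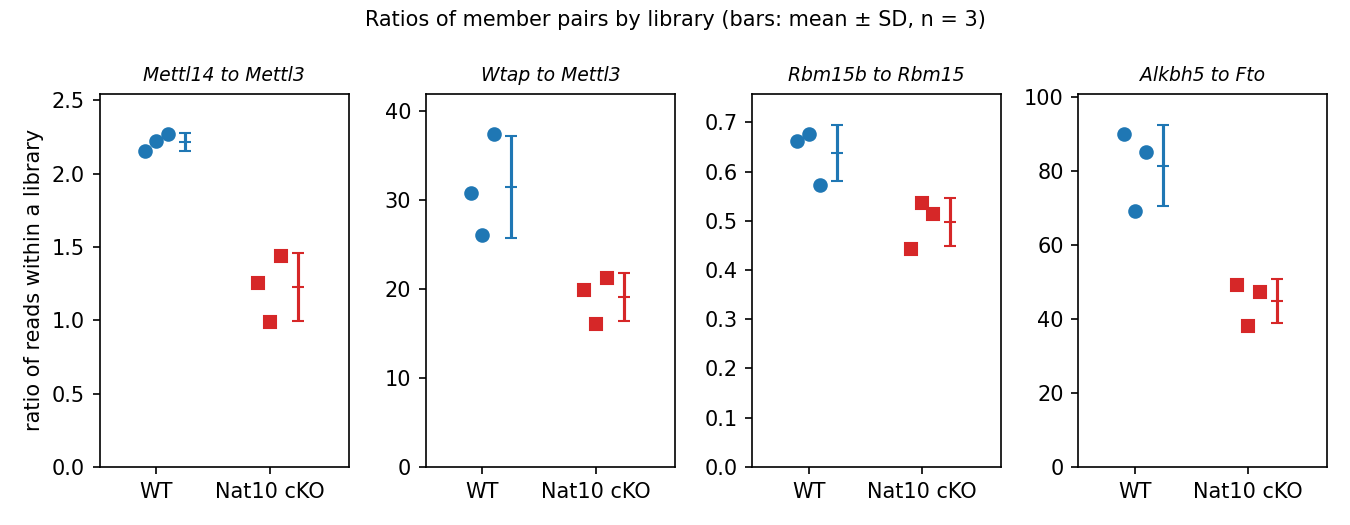
Ratio of the reads of 2 members within each library, for 3 WT (circles) and 3 Nat10 cKO libraries (squares), with mean ± SD beside them; each vertical axis starts at 0. Nat10 cKO libraries lie below WT libraries in all 4 panels, with Mettl14 to Mettl3 falling from a mean of 2.22 to 1.23.

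Wtap had the highest level per length, followed by Alkbh5. TMM-scaled CPM per kb of merged exons was 188 ± 28.1 for Wtap, 113 ± 3.99 for Alkbh5, 17.4 ± 0.271 for Virma, 14.7 ± 0.405 for Zc3h13 and 11.2 ± 0.247 for Mettl14 in WT oocytes (SD, n = 3). Mettl3 (7.38 ± 0.350), Rbm15 (6.90 ± 0.721), Cbll1 (5.85 ± 0.219), Rbm15b (5.01 ± 0.642) and Fto (0.647 ± 0.10) followed. Neighbours in this order did not overlap between WT libraries, except Mettl3 with Rbm15 and Cbll1 with Rbm15b. Wtap stood at the 98.4th percentile of 17900 tested genes with a known length, Alkbh5 at the 97.1st and Fto at the 30.3rd, all per kb of merged exons. The levels depend on the length used: per kb of the principal transcript, WT means were 571 CPM for Wtap, 118 for Alkbh5, 30.3 for Mettl14, 18.5 for Mettl3 and 2.37 for Fto.

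In Nat10 cKO oocytes Mettl3 lay above Mettl14 per kb of merged exons, the reverse of their order in WT oocytes. On that length Mettl3 stood at 9.45 ± 0.726 CPM and Mettl14 at 7.86 ± 0.964 CPM (SD, n = 3), with no overlap between them. Cbll1 (7.07 ± 1.15) moved above Rbm15 (6.55 ± 0.569), but these overlapped, as did Virma with Zc3h13 and Mettl14 with Cbll1. Divided by the length of the principal transcript instead, Mettl14 ranked 3rd and Mettl3 5th of 10 in WT, and Mettl3 3rd and Mettl14 4th in Nat10 cKO oocytes. With that length Mettl3 stood at 22.8, 25.8 and 22.5 CPM per kb and Mettl14 at 21.1, 18.8 and 24.0 CPM per kb in Nat10 cKO replicates, so the libraries of the 2 genes overlapped. Wtap, Alkbh5, Rbm15b and Fto kept ranks 1, 2, 9 and 10 in both genotypes with either length.

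Wtap therefore filled most of the summed writer level. Over the 8 writers, CPM per kb of merged exons summed to 257 ± 27.2 in WT and 209 ± 13.6 in Nat10 cKO libraries. Wtap held 73.1% ± 3.31 and 69.7% ± 0.955 of this sum. Mettl3 held 2.90% ± 0.393 of the sum in WT and 4.55% ± 0.637 in Nat10 cKO, and Mettl14 4.40% ± 0.553 and 3.76% ± 0.217 (SD, n = 3). Without Wtap the other writers summed to 68.4 ± 0.929 and 63.2 ± 3.39. The 2 erasers summed to 114 ± 4.03 and 82.3 ± 11.6, nearly all of it Alkbh5. These sums and shares are descriptions and were not tested. They depend on the length used, and were not computed with the length of the principal transcript.

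Of 14 tested m6A readers and binding proteins, 4 rose and 3 fell under TMM scaling, where 17.4% of all tested genes rose and 17.6% fell, and the median log2 change was 0.05. The translational regulator Fmr1 rose from 22.0 ± 5.02 to 37.8 ± 0.869 CPM and the initiation factor subunit Eif3a from 41.4 ± 2.50 to 58.6 ± 2.68 CPM. The nuclear RNA-binding protein gene Hnrnpa2b1 fell from 259 ± 23.7 to 180 ± 23.0 CPM (limma adjusted p between 0.00144 and 0.00226 for these). The reader falls were 2 with DESeq2, and 1 without a filter and without WT replicate 1, WT replicate 3, Nat10 cKO replicate 1 or Nat10 cKO replicate 2. Over all tested genes the falls were 3232 in the main fit, 3236 with DESeq2 and 2323 without a filter. In the 4 fits without a library they were 2594, 2201, 2220 and 2213, in the same order. On the deposited scale 1 reader rose and 0 fell (6.58% and 1.39% of all tested genes), and on shares times the factor 2 rose and 2 fell (5.60% and 16.5%). Fmr1 and Eif3a were called on neither of these scales (limma adjusted p from 0.0604 to 0.450). Hnrnpa2b1 was called on shares times the factor but not on the deposited scale (limma adjusted p = 0.00289 and 0.846).

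Among 14 other RNA methyltransferase genes and cofactors, 2 rose and 0 fell (limma adjusted p under 0.05), and the median log2 change was 0.20. The share that rose was close to the 17.4% of all tested genes that rose, while 17.6% of them fell. The counts were 2 and 0 with edgeR, and 3 and 0 with DESeq2. At an unadjusted limma p under 0.05 they were 3 and 0, where 8241 of 18353 tested genes passed in either direction. Mettl2, a tRNA cytidine methyltransferase gene, rose from 1.60 ± 0.377 to 6.38 ± 1.56 CPM, and Wdr4, the partner of METTL1 on tRNA, from 0.852 ± 0.629 to 3.62 ± 0.489 CPM (SD, n = 3). Their log2 changes were 1.49 and 1.37 (SE 0.185 and 0.225, limma adjusted p = 0.000120 and 0.000606), and both kept their call on the 3 scales and without any 1 library. Both had few reads in WT libraries (45 to 89 for Mettl2 and 6 to 60 for Wdr4), and the size depended on the pseudocount. The log2 changes were 1.92 and 2.27 with a pseudocount of 0.1, and 0.78 and 0.56 with 5. Mettl4 had a log2 change of 0.26 and was not called (limma adjusted p = 0.0614), but passed without Nat10 cKO replicate 3 (0.34, limma adjusted p = 0.0133).

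Among 7 other AlkB dioxygenase genes, which include relatives of Alkbh5 and Fto, 2 rose and 0 fell (limma adjusted p under 0.05), with a median of 0.30. Of all tested genes 17.4% rose and 17.6% fell. The counts of the list were 2 and 0 with edgeR, and 3 and 0 with DESeq2. At an unadjusted limma p under 0.05 they were 3 and 0, where 8241 of 18353 tested genes passed in either direction. Alkbh4 rose from 3.60 ± 1.34 to 8.57 ± 1.41 CPM and Alkbh1 from 9.67 ± 1.95 to 13.8 ± 0.773 CPM (log2 changes 1.09 and 0.49, limma adjusted p = 0.00162 and 0.0232). Alkbh2 had a log2 change of 0.34 and was not called (limma adjusted p = 0.0511), but passed without WT replicate 2 (0.41). It also passed with DESeq2 size factors, library sizes only, a pseudocount of 5 and DESeq2, so the rises were 3 in these 5 settings (adjusted p from 0.0188 to 0.0483). They were 1 on the deposited scale, on shares times the factor, and without WT replicate 1, WT replicate 3, Nat10 cKO replicate 1 or Nat10 cKO replicate 2. In these settings Alkbh4 kept its call and Alkbh1 lost it.

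Of 11 genes for the supply and recycling of S-adenosylmethionine, the methyl donor, 2 rose and 0 fell (limma adjusted p under 0.05), and the median was 0.04. The share that rose was close to the 17.4% of all tested genes that rose, while 17.6% of them fell. The counts were 2 and 0 with edgeR and with DESeq2. At an unadjusted limma p under 0.05 they were 2 and 1, where 8241 of 18353 tested genes passed in either direction. Ahcy, which clears the product of methyl transfer, rose from 19.2 ± 1.66 to 27.6 ± 3.36 CPM and Mtap, of methionine salvage, from 55.3 ± 2.27 to 71.1 ± 4.63 CPM (limma adjusted p = 0.00776 and 0.0109). The methionine adenosyltransferase gene Mat1a had a log2 change of -0.31 and was not called (limma adjusted p = 0.0591), but passed without Nat10 cKO replicate 2 (-0.40) and with the replicate block. On the deposited scale and on shares times the factor 0 genes of this list passed. Thumpd1, the adaptor of NAT10 on tRNA, had a log2 change of -0.09 (SE 0.0862, limma adjusted p = 0.423).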

How the data were processed

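The submitters' processing notes list STAR 2.7.10a, featureCounts, Trim Galore 0.6.7 and the mm10 build; the sources used here give no settings, strand or annotation. In the deposited table, WT replicate 1 holds whole read counts. The other 5 columns hold a deposited signal, whole reads times 1 factor per library: WT replicate 2 has 1.38, WT replicate 3 has 0.945, and the Nat10 cKO factors lie between 0.908 and 0.932. Each factor equals 69 divided by a whole number: 50 and 73 for these WT replicates, and 75, 76 and 74 for Nat10 cKO replicates 1, 2 and 3. How the authors chose the factors is not stated; 0 rows carry an ERCC name, although 0.2 µl of a 1000-fold dilution of that spike-in was added per pool. Division by the smallest value gave whole reads for 100% of values within 0.001.

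Genes were kept by filterByExpr (minimum count 10). The main test was limma (trend, robust) on log2(CPM + 1) with TMM factors, two-sided, with Benjamini-Hochberg adjustment over 18353 genes; a fold change on this scale understates low genes. The count test edgeR was an alternative and called 6202 genes. The shallowest library held 33.5 M reads. Low genes rest on few reads, so their counting error is relatively the largest in any library. Libraries of a group differed by more than counting error (chi-square per degree of freedom 11.5 or more). The members and lists were chosen with earlier results of these data known. Named were all members, Nat10 and the 3 genes of smallest p in each related list. Tox4, Dcaf1, Manf, Gm29542, C1qb, Col3a1, Ooep and Zar1 were added after their values were seen. So were Serpine2, Inha, Inhba, Cyp19a1, Pecam1, Myh11 and Cyp17a1. Lengths and positions came from GENCODE M21 on GRCm38, and overlapping exons from the same annotation. The scripts were tested on simulated data. Versions were limma 3.58.1, DESeq2 1.42.0 and edgeR 4.0.16 in R 4.3.3, and pandas 2.3.3, matplotlib 3.10.9 and numpy 2.4.6 in Python 3.11.15.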

Additional observations from a re-analysis of the deposited data

How the results depend on the processing

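Over all tested genes, 3190 rose and 3232 fell. On the deposited scale 1207 rose and 255 fell, and with shares times the deposited factor 1027 rose and 3028 fell. Without a filter 2601 rose and 2323 fell. Leaving out 1 library gave 2108 to 3431 rises and 2201 to 3334 falls. Of the members, 1 rose and 5 fell; 0 rose and 0 fell on the deposited scale, 0 rose and 3 fell with shares times the factor, and 2 fell without a filter, while leaving out 1 library gave 0 to 2 rises and 2 to 5 falls. On the deposited scale the sign turned for Virma (0.11), Rbm15 (0.28), Zc3h13 (0.26), Mat1a (0.0427) and Thumpd1 (0.26), and without Nat10 cKO replicate 2 for Zc3h13, which ranged from -0.25 to 0.0283 when 1 library was left out; the cause was not tested. Without a filter Wtap, Virma and Rbm15b, and with library sizes only Virma, lost their calls. Same-numbered libraries deviated with correlations of 0.08, 0.07 and -0.12, and WT replicate 3 correlated best with Nat10 cKO replicate 1 (0.24), so the numbers were not taken as pairs. With the replicate block 3070 genes rose and 3164 fell, and 1 member rose and 4 fell. The block cannot move the log2 differences of the ratios between genotypes, since each replicate number holds a library of each genotype. They stayed at -0.85, -0.71, -0.34 and -0.82 for Mettl14 to Mettl3, Wtap to Mettl3, Rbm15b to Rbm15 and Alkbh5 to Fto. The exact permutation p was 0.25 for each ratio with the block, against an exact permutation p of 0.1 without it. With 3 libraries per group this exact permutation test cannot fall below 0.05, so it cannot decide whether a ratio changed. Pseudocounts of 0.1 and 5 kept every member's call and the direction of every ratio. The length of the principal transcript was chosen as an alternative after seeing the data.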
